A study of Mus musculus with 16 samples.

Results

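A stretch of 1500 kb on mouse chromosome 12, chr12:114000001-115500000 in build mm8, was examined in chromatin immunoprecipitation sequencing (ChIP-seq) libraries of splenic B and T cells. It is named for the immunoglobulin heavy chain locus and was cut into 300 windows of 5 kb, of 492493 such windows on chromosomes 1 to 19. It was proposed with the read depth of these same libraries known and is treated as selected on the difference in depth between B and T cells. That difference is therefore a description here and carries no test. No mm8 gene annotation was used, so the name could not be checked and no window is assigned to a gene. In the RefSeq table for assembly GRCm38.p6, with coordinate increasing, Mta1 and Crip1 come first. The constant region genes follow (Igha first, Ighd and Ighm last), then the J segments, the D segments and the V segments.

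The heavy chain locus encodes the larger chain of antibodies. A developing B cell cuts out the DNA between 1 D and 1 J segment and then between 1 V segment and the joined DJ, so the intervening segments are lost from that chromosome in all descendants of the cell. T cells carry out this process at their receptor genes and largely keep the V segments of the heavy chain locus. An IgG library, made with a nonspecific antibody, reports mainly how much DNA can be recovered and uniquely aligned at a place. Pol2 is RNA polymerase II, which transcribes the genes, and Myc is a transcription factor that lymphocytes switch on when they are activated.

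The groups were B cells given LPS (25 µg/ml) together with 10058-F4, a small molecule inhibitor of Myc, for 4 h (1 Myc, 1 Pol2 and 2 IgG libraries). B cells given LPS alone for 4 h (B4) had 2 Myc, 1 Pol2 and 3 IgG libraries, and quiescent B cells (B0) had 1 Myc and 1 IgG library. T cells given ConA (7.5 µg/ml) for 14 h (T14) and for 4 h (T4) had 1 Myc and 1 IgG library each. LPS is a bacterial product that activates B cells, and ConA is a lectin that activates T cells. Myc was precipitated through an EGFP tag, according to the design text, and the labels give no strain, no dose of 10058-F4 and no statement that libraries came from separate animals. The spread between libraries of a group may therefore be technical. The titles of B4 Pol2 and of B4 IgG replicate 2 carry the mark wt, which is not explained. The title and the name of the deposited file give opposite antibodies for each T14 library, so these are called the libraries labelled T14 Myc and T14 IgG, by title.

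Libraries held 1278471 to 7433203 reads on chromosomes 1 to 19. Read length differed with cell type: 25 bases in all T libraries, 24 to 30 bases in B4 Myc replicate 1 and B4 IgG replicate 1, and 45 bases in all other B libraries. Cell type and read length therefore cannot be told apart except through the replicate 1 pair of B4. The short-read libraries also stand together in the sample numbering, apart from the 45-base ones. Read length thus cannot be told apart from any other difference in preparation or sequencing between these sets. The main results on depth are given with and without the 45-base libraries. The stretch drew few reads. All 16 libraries together placed 10221 reads in it, with a median of 28.5 per window and a highest of 129. In 56 windows the 16 libraries had fewer than 10 reads in all, and 5 windows had 0.

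Read depth in the stretch, relative to both flanks, was lower in every B cell library than in every T cell library, and the ratio of B to T was nearer to 1 with matched read length. Depth is given in reads per 1000000 reads on chromosomes 1 to 19 (RPM) per 5 kb window, as a percentage of the mean over the 3 Mb on each side of the stretch. The IgG libraries of B cells with 10058-F4 stood at 11.97 and 23.6% of their flanks. The 3 IgG libraries of B4 stood at 34.3, 15.3 and 33.3%, the first with short reads and the others with 45-base reads, and that of B0 at 15.1%. The libraries labelled T14 IgG and T4 IgG stood at 38.9 and 57.8%. The highest B value thus lay below the lowest T value, by less than the distance between the T libraries. Relative to the left flank alone the groups touched, with 31.6% in B4 IgG replicate 3 and 31.4% in the library labelled T14 IgG. The mean was 22.3 ± 9.74% in B cells (SD, n = 6) and 48.3 ± 13.4% in T cells (SD, n = 2), and the mean log2 difference, B minus T, was −1.21. On the same log2 scale the SD among the B libraries was 0.64.

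The Myc libraries stood in the same order. With 10058-F4 the value was 19.1% of the flanks, the B4 replicates had 34.9% (short reads) and 32.0% (45-base reads), and B0 had 12.6%. Depth relative to the flanks did not follow read length library by library, since one Myc and one IgG library of B4 with 45-base reads lay close to the short-read pair and above the other 45-base libraries. The library labelled T14 Myc had 71.6% and T4 Myc had 40.7%. The spread within B4 (15.3 to 34.9% over its Myc and IgG libraries) covered all other B Myc and IgG values except those of the first IgG library with 10058-F4, B0 Myc and B0 IgG, and the B cell states were not ordered beyond that.

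**Figure D1:**
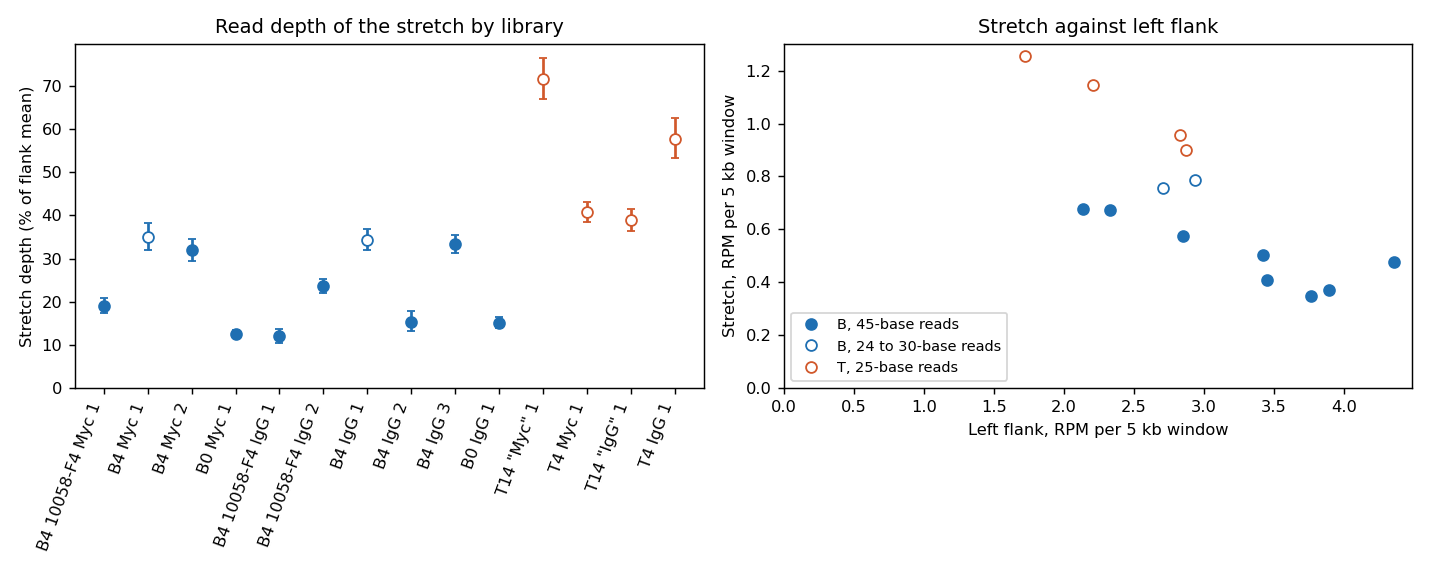
Left, depth of the stretch in each Myc and IgG library as a percentage of its flank mean, with 95% intervals for counting error. Right, RPM per 5 kb window in the stretch against the left flank. Blue marks B libraries, orange T libraries, and open symbols reads of 24 to 30 bases. All B points lie below all T points in both panels, and the short-read B points, at 34.3 and 34.9%, are the highest of the B points.

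The flanks moved as well. In RPM the stretch had 0.346 to 0.757 per window in B IgG and 0.369 to 0.788 in B Myc, against 0.900 to 1.26 over the 4 T libraries, again without overlap. The left flank had 2.14 to 4.36 RPM in B IgG, against 2.21 and 2.87 in T IgG. The 3 B IgG libraries with the lowest depth in the stretch had the highest left flank, at 3.45, 3.76 and 4.36 RPM. The right flank differed less, with 1.71 to 2.02 RPM in B IgG and 1.76 RPM in both T IgG libraries. The part that the left flank plays in the percentages was not tested beyond the alternatives in which each flank stood alone.

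With reads summed, the 6 B IgG libraries had 3584 reads in the stretch and the 2 T IgG libraries 1466. Relative to the flanks the ratio of B to T was 0.517, with a 95% interval of 0.486 to 0.550 that covers counting error only. The B libraries of 45-base reads alone gave 0.475 (0.446 to 0.507). B4 IgG replicate 1 alone, with short reads like the T libraries, gave 0.762 (0.698 to 0.833). When both short-read B4 libraries, Myc and IgG, were set against all 4 T libraries, the ratio was 0.727 (0.681 to 0.775), from 1271 and 3619 reads. On a log scale the ratio with matched read length lay about midway between 0.517 and 1.

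Between B IgG libraries that differ in read length, without any T library, a gap of like size was seen. The 45-base libraries include B0 and B4 with 10058-F4, so cell state differs there as well as read length. In RPM per window the stretch had 0.757 in B4 IgG replicate 1, and 0.475 and 0.675 in the 45-base B4 IgG libraries. The other 45-base IgG libraries had 0.409 in B0, and 0.346 and 0.574 with 10058-F4. In 1578 tiles of 1500 kb over chromosomes 1 to 19, the ratio of the 45-base B IgG libraries to B4 IgG replicate 1, in RPM, was 0.701 in the stretch, the 6th lowest tile, against a median of 0.978. The ratio of the 2 short-read B4 libraries to the 4 T libraries was 0.747, also the 6th lowest, against a median of 1.00. With all 6 B IgG over both T IgG libraries it was 0.574, the lowest of all tiles, against a median of 1.01 and a next lowest of 0.662. All 6 B libraries lay below both T libraries in RPM in 2.98% of these tiles, the stretch among them. Since the stretch was proposed with its depth known, its rank is a description.

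Along the stretch, the ratio of B to T depth was not even. The bounds of the following segments were drawn after the values were seen. In the first 1100 kb the B to T ratio over all IgG libraries was 0.463 (0.432 to 0.497), from 2558 B and 1168 T reads. In the next 300 kb it was 1.09 (0.902 to 1.32), from 670 and 130 reads, and in the last 100 kb it was 0.448 (0.372 to 0.541), from 356 and 168 reads. In the 1000 kb that follow the stretch it was 1.06 (0.981 to 1.14). Both of these ratios near 1 depended on the T library. Over T4 IgG alone they were 0.820 (0.623 to 1.10) and 0.723 (0.651 to 0.804), and over the library labelled T14 IgG alone 1.29 (1.02 to 1.67) and 1.36 (1.23 to 1.51). Over both T libraries, a block of 300 kb with B depth near T depth thus lay between 2 segments with lower B depth.

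With matched read length the segments had like ratios with overlapping intervals. The 2 short-read B4 libraries over the 4 T libraries gave 0.712 (0.662 to 0.766) in the first 1100 kb, 0.797 (0.650 to 0.971) in the next 300 kb and 0.765 (0.630 to 0.925) in the last 100 kb. In the 1000 kb after the stretch they gave 0.586 (0.534 to 0.642), lower than in the stretch itself. In those 1000 kb the short-read B4 libraries had 22.7 and 25.5% of their flank mean, the 45-base B Myc and IgG libraries 26.3 to 62.9%, and the T libraries 29.3 to 64.9%. From 1000 to 3000 kb after the stretch the ratio was 0.953 (0.921 to 0.986), and over the 3 Mb before it 1.08 (1.05 to 1.10). In blocks of 50 kb the matched ratio was under 1 in each of the first 28 blocks after the stretch, over 1400 kb. This run was picked after its values were seen. No share of blocks under 1 elsewhere in the genome is given for it, so its length is a description.

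Ratios were also taken within each library. The stretch had 135 and 154% of the depth of the 1000 kb after it in the short-read B4 IgG and Myc libraries. The 8 B Myc and IgG libraries of 45-base reads had 41.4 to 57.5%, and the 4 T libraries had 105 to 133%. The first 1100 kb had 195 and 190% of the depth of the next 300 kb in the short-read B4 libraries, 54.5 to 135% in the 45-base ones and 168 to 250% in T cells. On both ratios the short-read B libraries stood with or above the T libraries and apart from the other B libraries. On these ratios the libraries thus grouped with read length, or with another difference that goes with it. Both regions of each ratio had short-read B4 depth below T depth, with matched ratios of 0.727 in the stretch and 0.586 in the 1000 kb after it. Relative to the flanks, the stretch in the short-read B4 libraries (34.3 and 34.9%) still lay below that in every T library (38.9 to 71.6%). The cause of the grouping was not tested.

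**Figure D2:**
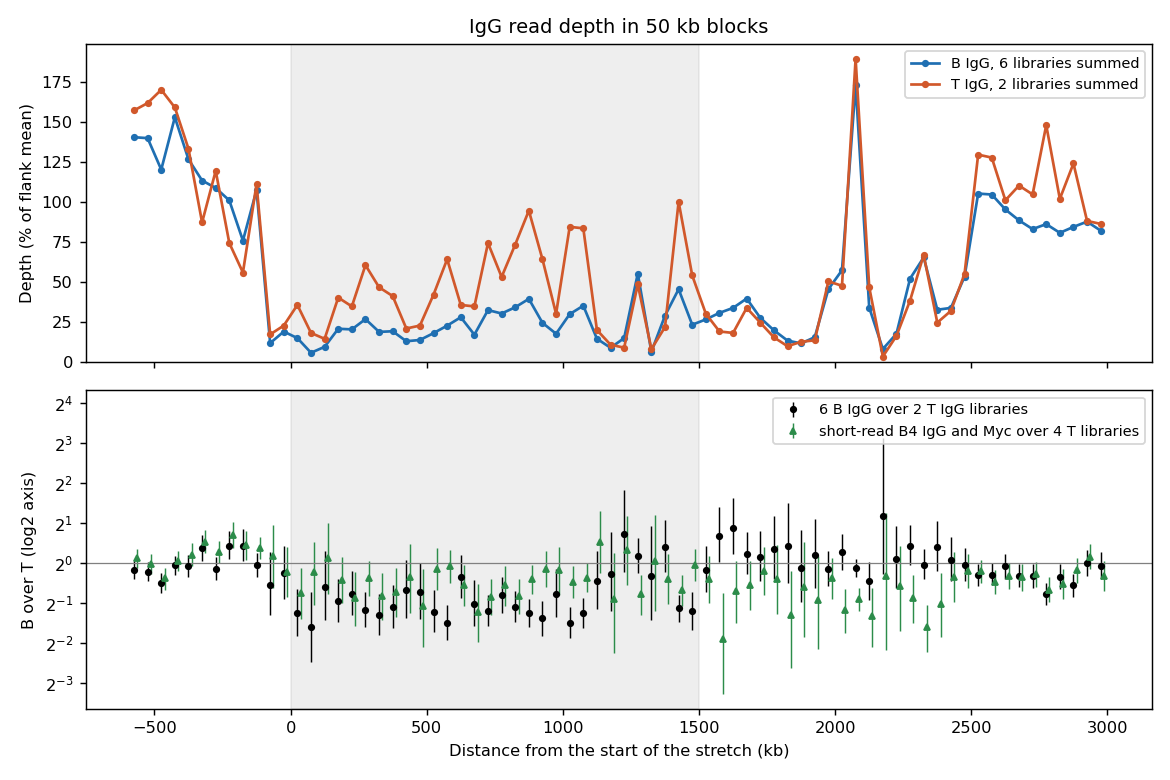
Top, IgG depth in blocks of 50 kb as a percentage of the flank mean, against distance from the start of the stretch (shaded), for the 6 B and the 2 T libraries summed. Bottom, the ratio of B to T on a log2 axis with 95% counting intervals, for these libraries (black) and for the short-read B4 Myc and IgG libraries over all 4 T libraries (green). Black points range from 0.328 to 1.65 in the stretch, and green points stay below 1 throughout the 1000 kb after it.

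In the 30 blocks of 50 kb, the B to T ratio over all IgG libraries ran from 0.328 to 1.65 with a median of 0.482, and 27 were under 1. With matched read length it ran from 0.430 to 1.45 with a median of 0.753, and 26 were under 1. No share of blocks under 1 on chromosomes 1 to 19 is given for these counts. The lowest block over all IgG libraries, chr12:114050001-114100000, had a ratio of 0.328 (0.181 to 0.607), and with matched read length it had 0.852 (0.487 to 1.44). All 6 B IgG libraries lay below both T IgG libraries in 12 of the 29 blocks with at least 10 T reads, against 5.77% of 46717 such blocks on chromosomes 1 to 19, and in 11 of the first 22 blocks. They lay above both in 0 of the 30, against 3.31% of the blocks on chromosomes 1 to 19.

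Single windows held few reads. Of the 51 windows with at least 10 T IgG reads, 46 had a B to T ratio under 0.5, against 13.2% of 266171 windows on chromosomes 1 to 19. In a stretch this sparse the minimum on T reads picks windows that happen to be high in T cells, so the count supports nothing by itself. With B4 IgG replicate 1 alone 17 of the 51 were under 0.5, and no share over chromosomes 1 to 19 is given for that library alone. A single window had 20 or more T IgG reads: chr12:114895001-114900000 had 23 reads over 6 B IgG libraries and 22 over 2 T IgG libraries, a ratio of 0.221 (0.118 to 0.416). In that window B4 IgG replicate 1 gave 9 of the 23 reads, and B4 IgG replicate 2 and the first IgG library with 10058-F4 gave 0.

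Pol2 was scarce throughout the stretch. The Pol2 library with 10058-F4 had 306 reads there and that without it 259, and the fullest windows held 6 and 7 reads. In 143 and 149 of the 300 windows there was no Pol2 read. At 5.55% of its flanks with 10058-F4 and 10.6% without it, Pol2 depth was below that of every IgG library. The left flank, at 6.06 and 5.69 Pol2 RPM, enters this percentage. Relative to the right flank alone Pol2 had 18.0% with 10058-F4 and 30.6% without it, within the 17.2 to 44.3% of the B IgG libraries. In RPM the ratio of Pol2 to summed IgG of the same state was 0.392 (0.344 to 0.445) with 10058-F4 and 0.536 (0.469 to 0.611) without it. The intervals do not cover the spread between IgG libraries. Per window Pol2 had 0.363 RPM without 10058-F4, against 0.757 (short reads), 0.475 and 0.675 (45-base reads) in B4 IgG. With 10058-F4 Pol2 had 0.199 RPM, against 0.346 and 0.574 in IgG. In the right flank the ratio of Pol2 to summed IgG was 0.549 with 10058-F4 and 0.649 without it. In the left flank it was 1.94 and 2.17. RPM is a share of each library's reads, so a ratio under 1 in a region does not by itself show a loss there.

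Few windows of the stretch held enough reads for a threshold on Pol2. With 10058-F4 and without it, 0 windows held the 20 Pol2 reads at which a 4-fold excess over IgG was counted. No window of the stretch could therefore show that excess. Of windows on chromosomes 1 to 19 with that many reads, 35.5% showed it with 10058-F4 and 52.3% without it. Both Pol2 libraries were tested against 5 IgG libraries of LPS-treated B cells with limma, with 10058-F4 as a covariate and Benjamini-Hochberg adjustment. Of 18 windows of the stretch with enough reads, 0 were higher in Pol2 (5.18% of 375786 windows on chromosomes 1 to 19) and 0 were lower (2.09%). With so few windows, counts of 0 are near these shares. At an unadjusted p below 0.05, 0 were higher and 3 lower, and limma-trend called 0 higher and 1 lower. Without a filter on low counts limma called 5 of 286 windows lower, against 6.17% of all windows in that fit. The median log2 difference was −0.84 over the 18 windows and −0.89 over all windows tested. Scaling by background blocks gave medians of 0.01 and 0.04. It called 36205 windows of chromosomes 1 to 19 higher and 189 lower, against 19468 higher and 7849 lower with scaling by library size. The median of the stretch thus lay close to that of all windows under both scalings.

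The 10 windows with the largest excess of B4 Pol2 over IgG rested on 2 to 4 Pol2 reads each, with differences of 0.739 to 1.27 RPM. The first, chr12:114755001-114760000, had 4 Pol2 reads with 10058-F4 and 4 without it, and 1, 0 and 3 reads in the B4 IgG libraries. The second, chr12:115395001-115400000, had 4 and 4 Pol2 reads, and 2, 1 and 3 reads in B4 IgG. Counts of this size do not separate Pol2 from background.

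Scaled to library size, Pol2 in the stretch was lower with 10058-F4, at 0.199 RPM per window, than without it, at 0.363 RPM. The ratio of RPM with over without it was 0.547 (0.462 to 0.649) for Pol2 and 0.749 (0.695 to 0.807) for IgG. In the right flank the ratio was 0.931 for Pol2 and 1.10 for IgG, and in the left flank it was 1.06 and 1.19. Each Pol2 state had 1 library, so the difference has no replicate check, and IgG in the stretch was lower with 10058-F4 as well.

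**Figure D3:**
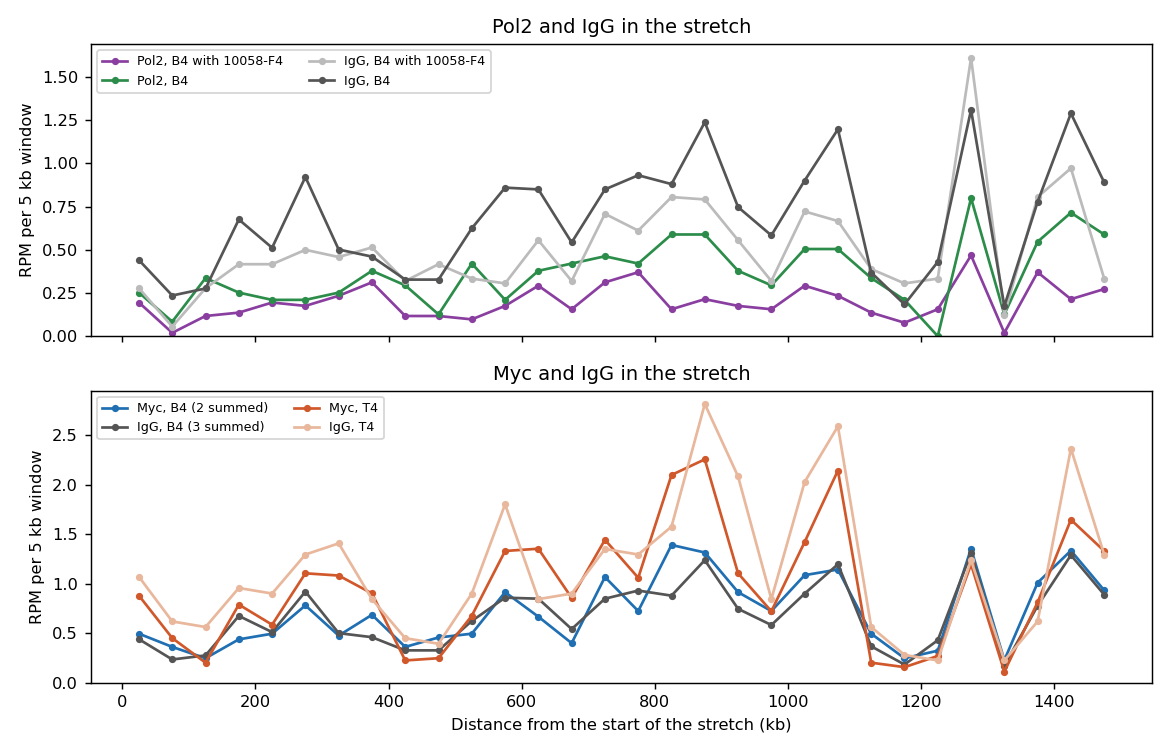
RPM per 5 kb window in the 30 blocks of 50 kb, against distance from the start of the stretch. Top, Pol2 and IgG of LPS-treated B cells with and without 10058-F4, where no Pol2 block exceeds 0.799 RPM. Bottom, Myc and IgG of B4 and T4, where the T4 curves differ in single blocks and neither Myc curve lies above its IgG curve throughout.

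Pol2 was abundant just outside the stretch, in a domain chosen after its values were seen. This domain of 30 kb, chr12:113850001-113880000, ended 120 kb before its first window and had 59.3 Pol2 RPM per window with 10058-F4 (1826 reads) and 45.7 without it (652 reads). IgG of the same states had 3.84 RPM with 10058-F4 and 4.56 without it. All 6 of its windows were higher in Pol2 than in IgG by limma (log2 differences of 3.20 to 4.23, adjusted p of 4.4e-21 to 3.5e-11). The highest, chr12:113870001-113875000, had 122.8 Pol2 RPM with 10058-F4 and 96.75 without it. Myc was not called in any of the 6. Beyond the domain few Pol2 reads were found, with 7 reads with 10058-F4 and 2 without it in the next 20 kb. Nearer to the stretch a single window, chr12:113930001-113935000, was called, with a log2 difference of 2.28 (limma, adjusted p 0.0041). It had 32 Pol2 reads with 10058-F4 (6.24 RPM), against 0.474 and 0.786 RPM in IgG of that state. Without 10058-F4 Pol2 had 5 reads (2.10 RPM), against 2.67, 0 and 0.391 RPM in the B4 IgG libraries. The call thus rested mainly on the Pol2 library with 10058-F4.

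IgG depth fell off at the same edge, and in the first 20 kb further in B than in T cells. The B IgG libraries summed stood at 175% of their flanks in the domain and at 7.30% in the 20 kb after it, and the T IgG libraries at 155% and 46.0%. In the 20 kb after the domain, chr12:113880001-113900000, the B IgG libraries had 15 reads in all and the T IgG libraries 20. Relative to the flanks the ratio was 0.159 (0.0755 to 0.326). In the domain itself it was 1.13 (0.909 to 1.41). With matched read length the 2 short-read B4 libraries had 10 reads and the 4 T libraries 59, a ratio of 0.351 (0.160 to 0.691). Relative to its flanks the short-read B4 Myc library had 10.4% here and B4 IgG replicate 1 had 26.9%, the other 8 B Myc and IgG libraries had 0 to 12.7%, and the T libraries had 40.9 to 79.2%. At this edge the short-read B libraries also lay below all T libraries, on 2 and 8 reads. In the 100 kb between these 20 kb and the stretch the B IgG libraries stood at 15.7% and the T IgG libraries at 20.3%, a ratio of 0.773 (0.551 to 1.11) with overlapping groups, and of 0.958 (0.685 to 1.32) with matched read length. T cell depth thus also fell off, further from the domain. The 20 kb were chosen after their values were seen and lie outside the stretch.

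**Figure D4:**
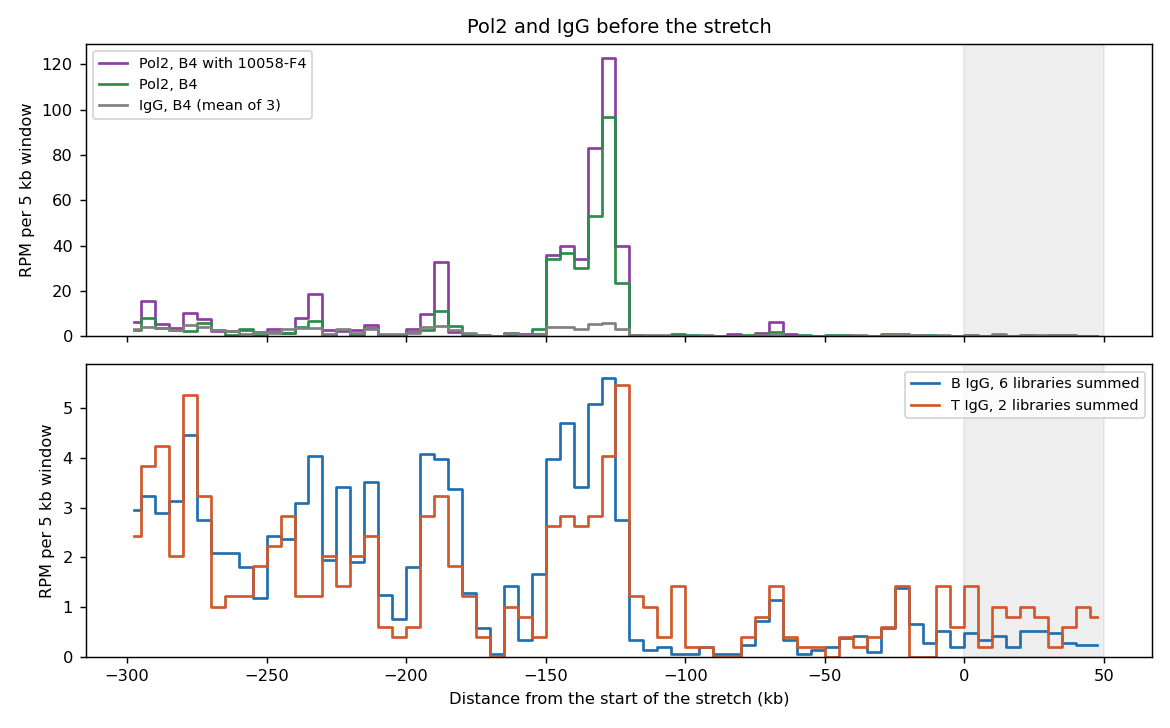
RPM per 5 kb window from 300 kb before to 50 kb into the stretch (shaded). Top, Pol2 of LPS-treated B cells with 10058-F4 and without it, and B4 IgG, with the Pol2 domain reaching 122.8 RPM and ending 120 kb before the stretch. Bottom, summed IgG of B and of T cells, where the B line lies below the T line over the 20 kb after the domain.

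The Myc libraries had no common excess over IgG in the stretch, and none of its windows passed the test for Myc. In RPM the ratio of Myc to summed IgG reads of the same state was 0.990 (0.889 to 1.10) with 10058-F4. It was 1.16 (1.05 to 1.28) and 0.994 (0.907 to 1.09) in the B4 replicates and 0.901 (0.806 to 1.01) in B0. B4 Myc replicate 1 over the IgG library of its own read length gave 1.04 (0.928 to 1.17). In T cells the ratio was 1.40 (1.27 to 1.53) for the T14 libraries by title and 0.835 (0.757 to 0.921) for T4. Intervals lay above 1 in B4 replicate 1 and in T14, and below 1 in T4. The T14 ratio turns over if its titles are exchanged, and in the left flank it was 0.600.

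Over libraries, the depth of the stretch relative to its flanks was 24.6 ± 10.6% in B Myc (SD, n = 4) and 22.3 ± 9.74% in B IgG (SD, n = 6). The log2 difference was 0.15, with p = 0.705 in a two-sided exact permutation test over libraries. That test ignored cell state and pairing, so it sets the difference against the spread over all B states. It does not exclude a small difference between antibodies. Libraries paired by title stood at 34.9% (Myc) and 34.3% (IgG) in B4 replicate 1. Myc replicate 2 and IgG replicate 3 of B4 stood at 32.0 and 33.3%, and B0 at 12.6 and 15.1%. B4 IgG replicate 2, without a Myc partner, had 15.3%. With 10058-F4 Myc had 19.1% and IgG 11.97 and 23.6%. In windows, limma with 2 B4 Myc and 3 B4 IgG libraries tested 42 of the stretch. It called 0 higher (0.00126% of 395560 windows on chromosomes 1 to 19) and 0 lower (0% of them), with 0 at an unadjusted p below 0.05 and 0 calls by limma-trend. On chromosomes 1 to 19 it called 5 windows in all.

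The 5 windows with the highest mean log2 ratio of Myc to IgG in B4 held 22 to 37 Myc and IgG reads each. At chr12:115370001-115375000 the Myc replicates had 6 and 6 reads and the B4 IgG libraries 4, 0 and 6. At chr12:114910001-114915000 the Myc replicates had 5 and 8 reads and the IgG libraries 6, 0 and 5. At chr12:115255001-115260000 the Myc replicates had 5 and 13 reads and the IgG libraries 3, 0 and 16. In each of these 3 windows a single IgG library had as many reads as one of the Myc replicates or more. These are counts not scaled to library size, and B4 IgG replicate 3 was larger than both Myc libraries. Scaled to library size, the log2 ratio of Myc to summed B4 IgG was 1.37 and 0.86 in the 2 replicates at the first window. It was 0.99 and 1.13 at the second. At chr12:115255001-115260000, which had the lowest mean of the 5, it was 0.25 and 1.07. The remaining windows of the 5 had 1.34 and 0.37 (chr12:114815001-114820000) and 1.13 and 0.37 (chr12:115440001-115445000). None of the 5 was called by limma.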

How the data were processed

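Per the labels and the submitters' processing notes, ChIP-seq reads of mouse spleen cells were handled with CASAVA 1.0 and Bowtie 0.12.7 on build mm8. The settings are not given in the sources used here. The deposited files list aligned reads with first and last position, length and strand, without counts per region. Whether positions start from 0 or 1 is not stated. From these, reads that shared strand and 5′ end were reduced to 1 (5.26% removed in B4 Myc replicate 1, at most 0.0796% elsewhere), and read midpoints were counted in 5 kb windows of chromosomes 1 to 19. Counts were divided by each library's reads on these chromosomes (RPM) and by the mean window of both 3 Mb flanks.

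Intervals are exact 95% Poisson or conditional binomial intervals and cover counting error only, and reads carry no molecular identifiers. limma 3.58.1 (R 4.3.3) with voom weights was fitted over windows averaging at least 4 reads in each library, with Benjamini-Hochberg adjustment over all of them at 0.05, and was checked on simulated data. Windows were named for the lowest B to T ratio (at least 20 T IgG reads), the 10 largest Pol2 minus IgG differences and the 5 highest Myc to IgG ratios with at least 20 reads. Any block of 50 kb could be named.

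The stretch, the segments and the comparisons were chosen with earlier results of these data known. Alternatives changed the flanks, duplicates, read position, read length, T14 labels, window size, filters, scaling and libraries. Comparisons of matched read length and with the 1000 kb after the stretch as reference were chosen after seeing the data.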

Additional observations from a re-analysis of the deposited data

How the results depend on the processing

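The log2 difference in depth of the stretch, B IgG minus T IgG (−1.21), was negative in 20 of 21 alternatives. The alternatives share libraries and are not independent. The 45-base B IgG libraries alone and the omission of B4 IgG replicate 1 are the same setting. Leaving out 1 library gave −1.49 to −0.92, B4 IgG replicate 1 alone −0.47, and the short-read B4 Myc and IgG libraries over all 4 T libraries −0.55. Against the 1000 kb after the stretch it was −1.005, but 0.19 for B4 IgG replicate 1 alone, so its sign rests there on the 45-base libraries. That reference was itself low in B4 IgG replicate 1. Relative to the flanks, its ratio to T IgG was 0.677 (0.598 to 0.766) there and 0.762 in the stretch. The count of 46 windows under 0.5-fold was 17 with B4 IgG replicate 1 alone, 1 with at least 20 T reads and 30 of 54 with windows of 20 kb, against 2.52% of such windows on chromosomes 1 to 19. It was 4 to 46 without 1 library, being 4 of 4 windows without the library labelled T14 IgG and 11 of 11 without T4 IgG, where fewer windows had 10 T reads. Apart from windows of 20 kb, no share over chromosomes 1 to 19 is given for these settings. The difference between B Myc and B IgG was −0.06 to 0.43 without 1 library.

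The count of Myc windows of the stretch stayed at 0 except with the 45-base libraries alone, where limma called 1 of 42 higher, beside 3562 higher and 11390 lower on chromosomes 1 to 19. With a replicate block for the pairs that the titles form, on 4 libraries, it was 0 of 61, and 837 windows of chromosomes 1 to 19 were higher. Without the block, on the same libraries, it was 0 of 61 and 15. The title pairs are 2, and the labels do not say what they share. Windows of 2 kb gave 329 higher on chromosomes 1 to 19 and 0 of 2 in the stretch. Pol2 windows higher than IgG stayed at 0 in all 13 alternatives, and without a filter on low counts 5 of 286 were lower, against 6.17% of all windows in that fit. On chromosomes 1 to 19, limma-trend called 16154 windows higher and 35067 lower. Of the 300 windows, 42 held enough reads for the Myc test and 18 for the Pol2 test.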
